A study of Mus musculus with 22 samples.

Results

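Neprilysin and 7 other peptidases that sit on the cell surface were followed in the fetal urogenital sinus epithelium, which gives rise to the prostatic buds of males. The members were the genes Mme, Mmel1, Ece1, Enpep, Anpep, Dpp4, Ace and Fap, chosen by name. Each was read from the probe set whose only symbol is that gene, taking the one with the highest mean over the 22 arrays where there are several. Each member had exactly 1 such probe set, so that choice had no effect. That mean is the measured value the choice could have used. The gene group itself was proposed with results of these arrays known, so that the adjusted p-values give the members' place among all genes tested and are not independent evidence for having picked them. They are 8 of 30102 genes with a probe set of their own on the array. A filter on low values passed 6 members, and Enpep and Fap lay below the median of their array on all 22 arrays, so that they are described and not tested.

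Cell-surface peptidases trim or destroy small signalling peptides outside the cell and so set how long a peptide can act on its receptor. Neprilysin, the product of Mme, is a zinc enzyme that cleaves enkephalins, tachykinins, natriuretic peptides, adrenomedullin and endothelins, and it is known as a surface protein of the adult prostate epithelium. Mmel1 and Ece1 belong to the same enzyme family, Ece1 making active endothelin from its precursor. Anpep and Enpep are aminopeptidases, Dpp4 and Fap are serine peptidases that cut after proline, and Ace makes angiotensin II.

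The tissue came from C57BL/6J fetuses at embryonic day E16.75. Knockouts of both sexes had the genotype ShhCre/+; Sox9fl/fl, in which Cre at 1 Shh allele deletes Sox9 in cells that have expressed Shh. Littermate controls were Shh+/+; Sox9+/fl, with no Cre and 1 floxed allele. Males gave 6 control and 6 knockout arrays, and females gave 5 of each genotype. All groups were treated with trypsin and collagenase, and the mesenchyme and the bladder and urethral epithelium were taken away under a microscope. The knockouts differ from the controls in Cre, in 1 copy of Shh and in Sox9 together, so these cannot be told apart, and the labels do not say whether an array held 1 fetus or a pool.

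The stretches of 250 bases just before the annotated start are shown for the 3 members that differed between the sexes, so that a reader can see the regulatory sequence beside the values. They are from RefSeq on build GRCm38.p6, which lists promoters for 7 of the 8 members, and where several starts are listed the one farthest upstream was used. Capitals mark the letters ACAAT or ATTGT, the core bound by SOX proteins on either strand, and would also mark AGAACA or TGTTCT, the half-site of the androgen receptor on either strand.

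Mme, chr3:63294961-63295210, plus strand: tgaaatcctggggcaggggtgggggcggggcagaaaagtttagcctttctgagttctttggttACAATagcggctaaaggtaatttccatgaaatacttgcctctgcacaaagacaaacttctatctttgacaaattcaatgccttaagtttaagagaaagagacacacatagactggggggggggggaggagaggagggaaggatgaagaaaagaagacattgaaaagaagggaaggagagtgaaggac
Anpep, chr7:79848211-79848460, minus strand: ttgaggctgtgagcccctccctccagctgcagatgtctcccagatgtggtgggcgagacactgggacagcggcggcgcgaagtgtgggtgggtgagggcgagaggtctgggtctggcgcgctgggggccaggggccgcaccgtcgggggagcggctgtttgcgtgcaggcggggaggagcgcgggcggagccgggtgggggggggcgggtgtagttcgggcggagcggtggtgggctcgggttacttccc
Ece1, chr4:137861987-137862236, plus strand: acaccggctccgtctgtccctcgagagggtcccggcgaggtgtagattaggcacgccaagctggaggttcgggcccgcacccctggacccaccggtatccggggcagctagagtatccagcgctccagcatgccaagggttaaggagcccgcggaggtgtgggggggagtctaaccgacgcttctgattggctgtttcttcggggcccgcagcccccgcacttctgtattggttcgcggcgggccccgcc

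The Mme window held 1 match to the SOX core and none to the androgen receptor half-site, and the Anpep and Ece1 windows held neither. Of 32851 such windows of 250 bases, 27.7% held the SOX core and 16.1% the half-site. These matches describe letters in a window and are not known binding sites. The Mme window was 45.6% G and C, against 72.8% for Anpep and 66.8% for Ece1.

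The values are log2 values as deposited, with array medians between 5.10 and 5.27. All 22 arrays matched their labelled sex on Xist and on 3 Y-linked genes. Sox9, the deleted gene, fell from 9.33 ± 0.21 (SD, n = 6) to 8.26 ± 0.14 (n = 6) in males and from 8.89 ± 0.11 (n = 5) to 7.89 ± 0.09 (n = 5) in females. Both differences passed (adjusted p = 1.04e-07 and 2.28e-06). Shh, whose locus carries the Cre, fell by 0.45 (log2 difference -0.45, adjusted p = 0.00874) in males and by 0.56 (-0.56, adjusted p = 0.0128) in females, the latter lost under 5 of 33 alternative settings, 4 of which leave out a female array, and the former lost with array weights. The 12 epithelial markers had means between 11.13 and 11.24 on every array, which matches the tissue label. Of the lists for other cells, urothelial markers (6 of 6 tested) were clearly present with array means of 9.66 to 10.55, and mesenchyme markers (11 of 14 tested) had array means of 7.21 to 7.98. Fewer markers passed the filter for endothelium (5 of 10, with Pecam1, Kdr, Tek, Emcn and Egfl7 not tested) and for red blood cells (2 of 6). Immune markers (9 of 10 tested, all but Ptprc) had array means of 6.28 to 6.71. Pericyte markers (4 of 6 tested) had array means of 7.06 to 7.68 and neural ones (3 of 6) 6.24 to 6.59. In none of these lists was a gene called for the knockout in either sex by limma. Over all genes 0.199% were called in males and 0.0315% in females, so that lists of this size would seldom hold a call. Male control 6 stood apart. Its mesenchyme mean was 7.98, while the remaining male controls lay between 7.21 and 7.46, and its smooth muscle mean was 7.10, while they lay between 5.88 and 6.06. It was also the highest male control for endothelial markers, at 6.58 against 5.84 to 6.21, and for pericyte markers, at 7.64 against 7.08 to 7.32. In RNA taken from many cells together, fewer cells of a type and less RNA per cell cannot be told apart.

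The comparison of males with females asks which genes differ between the sex that forms a prostate and the sex that does not. Among the members Mme differed most: in controls its level was 6.35-fold higher in males than in females, and in knockouts 5.56-fold. Male controls read 8.18 at the lowest, 8.29 at the median and 9.21 at the highest. Female controls read 5.77, 6.32, 5.76, 5.70 and 5.39. Every male control lay far above every female control, with a gap between the groups wider than the range of either. The log2 difference was 2.67 (SE 0.16, 95% interval 2.334 to 2.998, adjusted p = 1.44e-10), from 8.45 ± 0.39 (SD, n = 6) against 5.79 ± 0.34 (n = 5).

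The knockouts are separate arrays and showed a difference of similar size. Male knockouts read 7.74 at the lowest, 7.995 at the median and 8.09 at the highest, and female knockouts read 5.11, 5.70, 5.59, 5.56 and 5.42. Again no male array came near a female one. The log2 difference was 2.48 (SE 0.16, 95% interval 2.14 to 2.81, adjusted p = 4.43e-10), from 7.95 ± 0.14 (n = 6) against 5.48 ± 0.23 (n = 5). Both comparisons share 1 estimate of the spread but no array.

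Among all 19050 genes tested, Mme ranked 3 by the size of the male excess in controls and again in knockouts. Only Kdm5d and Uty, which lie on the Y chromosome and are not carried by females, were ahead of it, at 3.10 and 2.86 in controls and 3.17 and 2.85 in knockouts. Next after Mme in both came Eif2s3y, also Y-linked, at 2.28 in controls and 2.33 in knockouts. The female Mme values, from 5.11 to 6.32, lay nearer to the array medians of 5.10 to 5.27 than the male values did. Female knockout 1 was below its own array median. Probe sets for background (23 controls) lay at 3.19 in the median and reached 7.01 at the highest, and no detection call was used. The folds are those of the deposited values, and how much of the female signal is background was not tested. Mme therefore ranged over the arrays from 5.11 to 9.21, while Ece1 ranged from 9.36 to 9.75 and Mmel1 from 5.54 to 5.82.

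**Figure D1:**
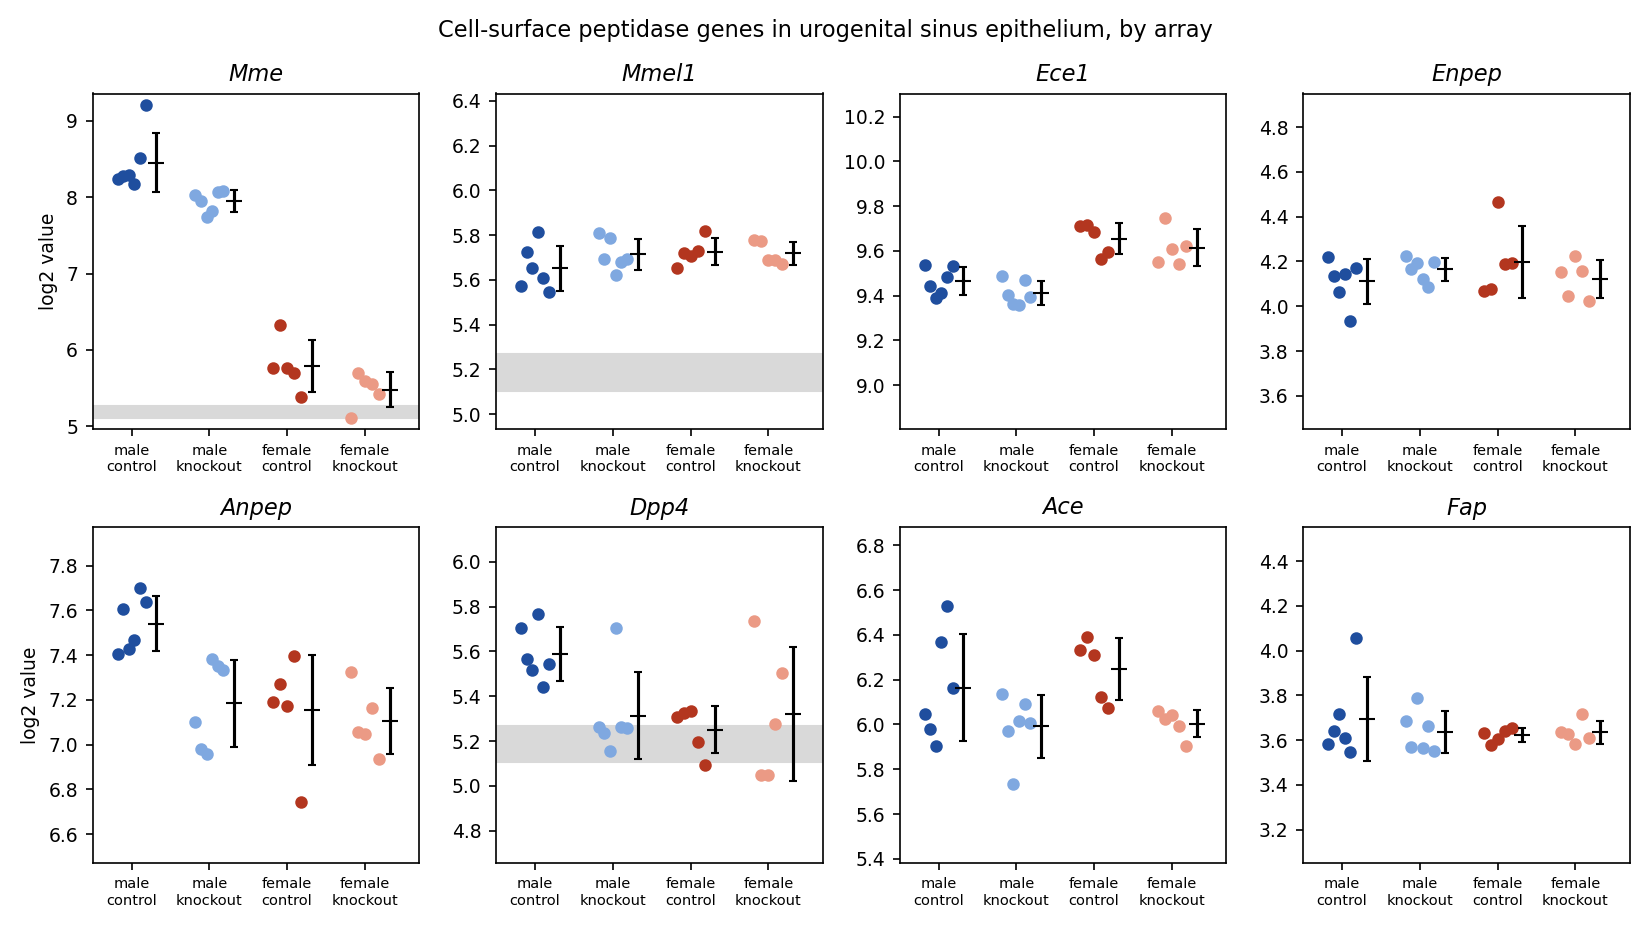
Log2 value of each of the 8 members (vertical axis) on the 22 arrays in the 4 groups (horizontal axis). Points are arrays in the order of their replicate number, black bars the mean ± SD, and the grey band the range of array medians, 5.10 to 5.27. Mme separates into male arrays at 7.74 and above and female arrays at 6.32 and below, while the other panels span far less.

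The order of the 4 Mme group means was male control, male knockout, female control and female knockout. Within each sex the genotypes did not differ past the threshold in the fit over all genes. Male knockouts and female controls differ in sex and genotype at once and were not compared by a test, but the lowest male knockout, 7.74, was above the highest female control, 6.32.

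Male control 6, the array with raised stromal markers, also had the highest Mme value, 9.21, against 8.51 in the next male control. Without that array the sex difference in controls was 2.51 (adjusted p = 1.47e-11). With the mean of the mesenchyme markers as a covariate the difference was 2.66 in controls and 2.48 in knockouts, and with endothelial markers it was 2.61 in controls. Between the control sexes 2 of 11 mesenchyme markers (Dcn and Fn1, both lower in males), 0 of 8 smooth muscle and 0 of 5 endothelial markers were called. The share over all genes was 6.94% there and 7.19% between the knockout sexes, and at such shares lists this short hold few calls or none. In knockouts Lum alone of the 11 mesenchyme markers was called, and it was higher in males (0.57, adjusted p = 0.00743), the direction of Mme. Of the 12 epithelial markers, the keratins Krt14 and Krt18 were lower in males in controls (-0.30 and -0.28) and in knockouts (-0.35 and -0.34), and in knockouts Krt8 was also lower (-0.21) and Grhl2 higher (0.18). That made 2 of 12 epithelial markers in controls and 4 of 12 in knockouts, beside the same shares of all genes. Mesenchyme means overlapped between the sexes, with 7.21 to 7.98 in male controls and 7.30 to 7.51 in female controls. Of the markers of pericytes, which wrap small vessels, Rgs5 alone of 4 tested was called and was lower in males of both genotypes (-0.995 and -1.16). Pericyte means tended to be lower in males, at 7.08 to 7.64 (median 7.21) in male controls and 7.37 to 7.68 (median 7.52) in female controls. In controls only male control 6 reached the female range. In knockouts the means were 7.06 to 7.38 in males and 7.35 to 7.60 in females, with a narrow overlap. Smooth muscle and pericyte means were not used as covariates. A covariate fit adjusts for a marker mean and does not measure how much of the Mme signal comes from these cell types, which was not tested.

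**Figure D2:**
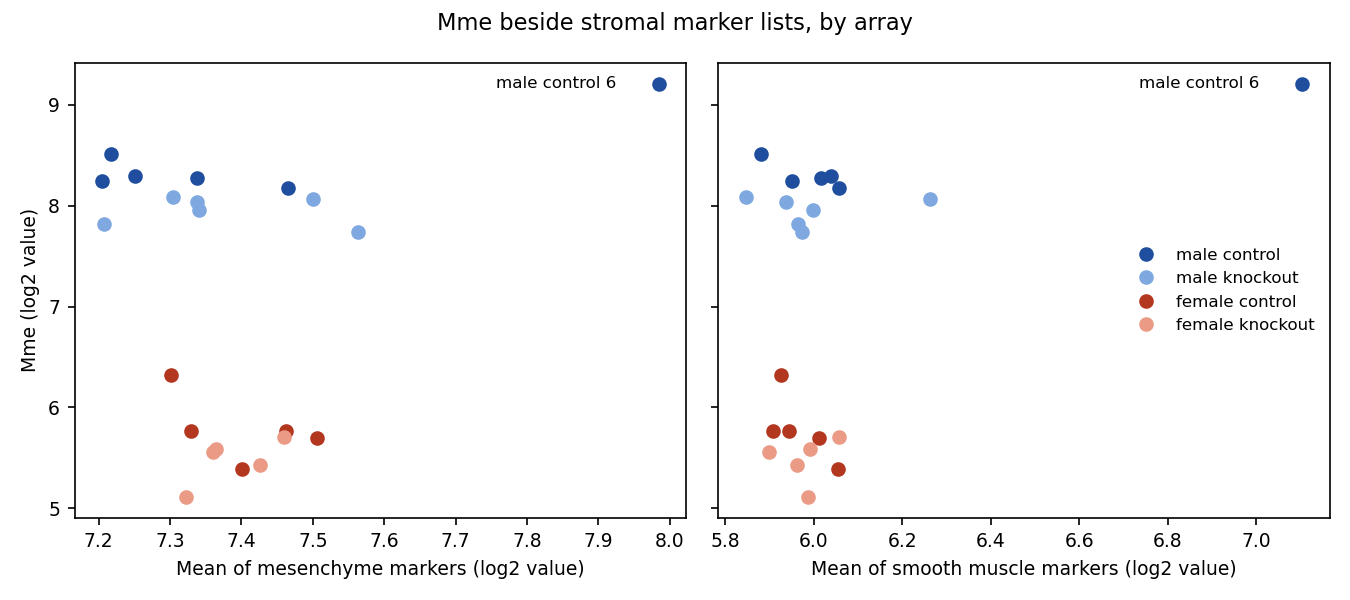
Log2 value of Mme (vertical axis) against the mean log2 value of 11 mesenchyme markers (left) and 8 smooth muscle markers (right), 1 point per array, coloured by group. Male control 6 lies to the upper right of both panels, at a mesenchyme mean of 7.98 and a smooth muscle mean of 7.10, while the marker means of the other male and female arrays overlap.

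Of the 6 tested members, 2 were higher and 1 lower in male than in female controls, where 6.94% of all genes were called (3.27% higher and 3.67% lower in males). In knockouts, 1 was higher and 1 lower, where 7.19% of all genes were called (3.66% higher and 3.52% lower). At an unadjusted p under 0.05 there were 4 members in controls and 2 in knockouts, beside 19.1% and 17.2% of all genes. Male and female arrays did not overlap for Mme, Anpep, Dpp4 and Ece1 in controls, as for 5.64% of all genes (2.82% higher and 2.82% lower in males), and for Mme and Ece1 in knockouts, as for 5.82% (2.79% higher and 3.03% lower). The called members were Mme and Anpep (higher in males) and Ece1 (lower in males) in controls, and Mme and Ece1 in knockouts. The median difference of the tested members was 0.13 in controls and -0.01 in knockouts, beside -0.01 and -0.01 over all genes.

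Ece1, the endothelin-converting enzyme, went the opposite way from Mme with a far smaller step. Male controls read 9.39 at the lowest, 9.46 at the median and 9.54 at the highest, and female controls 9.71, 9.71, 9.68, 9.56 and 9.60. The ranges did not overlap, though the highest male and the lowest female were close. The difference was -0.19 (SE 0.05, adjusted p = 0.0117) in controls. It was -0.20 (SE 0.05, adjusted p = 0.00625) in knockouts, from 9.41 ± 0.05 (n = 6) in males against 9.61 ± 0.08 (n = 5) in females. The highest male knockout read 9.49 and the lowest female knockout 9.54. Both calls were lost when arrays were centred on their medians, at -0.15 (adjusted p = 0.168) in controls and -0.18 (adjusted p = 0.0713) in knockouts.

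Mmel1, a secreted and membrane-bound relative of neprilysin, varied little. All 22 of its values lay between 5.54 and 5.82, above the array medians. Its sex difference was -0.07 in controls (95% interval -0.18 to 0.03) and -0.01 in knockouts (95% interval -0.11 to 0.10), and neither passed the threshold (adjusted p = 0.450 and 0.985).

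Anpep, the alanyl aminopeptidase, was higher in male than in female controls. Male controls read 7.40 at the lowest, 7.54 at the median and 7.70 at the highest, and female controls 7.19, 7.27, 7.17, 7.40 and 6.74. The highest female control and the lowest male control nearly touched. The difference was 0.39 (SE 0.10, 95% interval 0.17 to 0.60, adjusted p = 0.0216), or 1.31-fold. That call was lost without male control 5 (0.35, adjusted p = 0.0509) or female control 5 (0.28, adjusted p = 0.0790), and with the replicate number as a block (0.36, adjusted p = 0.0564). In knockouts the sexes overlapped, with 7.19 ± 0.19 (n = 6) in males and 7.11 ± 0.15 (n = 5) in females, and the difference of 0.08 did not pass (95% interval -0.13 to 0.29, adjusted p = 0.815).

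Dpp4, a peptidase that removes dipeptides from chemokines such as Cxcl12 and from gut hormones, did not pass between the sexes. Male controls read 5.44 at the lowest, 5.55 at the median and 5.77 at the highest, and female controls 5.31, 5.32, 5.33, 5.19 and 5.09. These groups did not overlap, but the values lay near the array medians and the difference of 0.34 (SE 0.11) had an adjusted p of 0.0619. It passed with only the control arrays in the model (adjusted p = 0.00822), and without male knockout 4 (adjusted p = 0.0311), female knockout 1 (0.0273) or female knockout 2 (0.0490), whose Dpp4 values enter only through the spread. In knockouts the difference was -0.01 (95% interval -0.23 to 0.22).

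Ace, the angiotensin-converting enzyme, had sex differences of -0.08 in controls (95% interval -0.27 to 0.11) and -0.01 in knockouts (95% interval -0.20 to 0.18), neither past the threshold (adjusted p = 0.680 and 0.984). Male controls spread from 5.91 to 6.53 and covered the whole range of the female controls, 6.07 to 6.39.

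Enpep, which trims angiotensin II, and Fap, a marker of activated fibroblasts, were the dim members. Enpep lay between 3.93 and 4.47, with group means of 4.11 ± 0.10 and 4.16 ± 0.05 in control and knockout males and 4.20 ± 0.16 and 4.12 ± 0.08 in control and knockout females. Fap lay between 3.55 and 3.79 on 21 arrays, and at 4.06 on male control 6. Fap and Dpp4 are near neighbours, with the glucagon gene Gcg as the single protein-coding gene between them in the GRCm38.p6 annotation. With no filter on low values, Enpep and Fap had sex differences in controls of -0.09 (adjusted p = 0.583) and 0.07 (adjusted p = 0.7002).

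**Figure D3:**
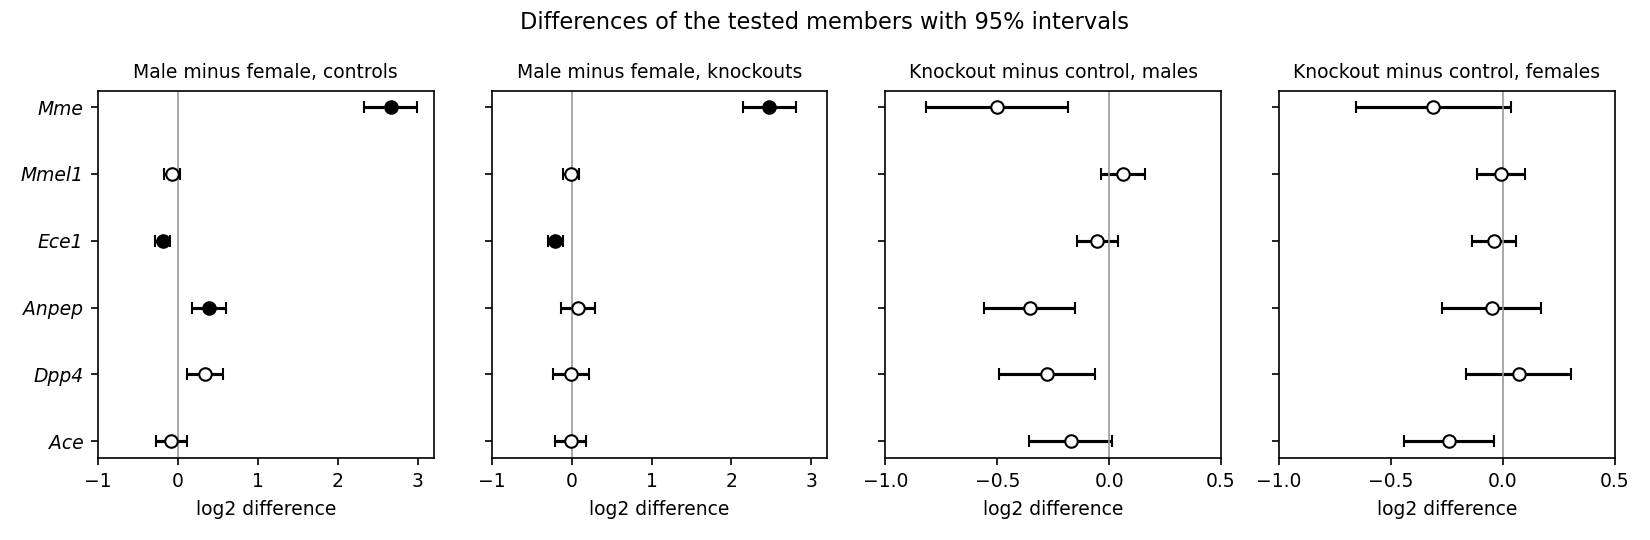
Log2 difference (horizontal axis) of the 6 tested members (rows) in 4 comparisons, with 95% intervals from the limma fit. Filled points passed an adjusted p of 0.05 over all genes. Mme stands at 2.67 and 2.48 in the sex comparisons, and in both knockout comparisons all points are open.

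Knockouts were set against controls to find what differs with the loss of Sox9 and the Cre allele. No tested member passed in limma, 0 of 6 in males where 0.199% of all genes were called (0.0210% higher and 0.178% lower), 0 of 6 in females where 0.0315% were called, and 0 of 6 on the average of the sexes where 0.247% were called (0.0472% higher). At an unadjusted p under 0.05 there were 3 of 6 members in males (Mme, Anpep and Dpp4), 1 in females (Ace) and 3 on the average (Mme, Anpep and Ace). All of these pointed down. The shares of all genes at that level were 6.27% in males, 5.46% in females and 7.19% on the average. The median difference of the tested members was -0.22 in males and -0.04 in females, beside 0.01 and 0.01 over all genes.

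Mme and Anpep lay lower in every male knockout than in any male control, though neither passed over all genes. For Mme the lowest male control was 8.18 and the highest male knockout 8.09. The difference was -0.50 (SE 0.15, 95% interval -0.82 to -0.19, adjusted p = 0.402), and -0.35 (adjusted p = 0.603) without male control 6. For Anpep the male knockouts read 6.96 at the lowest, 7.22 at the median and 7.38 at the highest, just under the lowest male control at 7.40. The difference was -0.36 (SE 0.10, 95% interval -0.56 to -0.15, adjusted p = 0.289). The male arrays of the 2 genotypes did not overlap for 0.420% of all genes, 0.236% lower and 0.184% higher in knockouts.

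In females the Mme difference was -0.31 (95% interval -0.66 to 0.04, adjusted p = 0.937) with overlapping arrays, and -0.18 without female control 2. That of Anpep was -0.05 (95% interval -0.27 to 0.17). Ace was the member whose female arrays did not overlap: female controls read 6.33, 6.39, 6.31, 6.12 and 6.07, and female knockouts 6.06, 6.02, 6.04, 5.99 and 5.90. The closest of these values differed by little, the difference was -0.24 (SE 0.10, adjusted p = 0.871), and the female genotypes did not overlap for 1.39% of all genes, 0.619% lower in knockouts. In males the Ace difference was -0.17 (95% interval -0.36 to 0.01, adjusted p = 0.826).

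Dpp4 in male knockouts read between 5.16 and 5.26 on 5 of 6 arrays and 5.70 on male knockout 4. The male difference was -0.28 (SE 0.10, adjusted p = 0.629), and -0.35 without that array. Female knockouts scattered widely, at 5.73, 5.05, 5.05, 5.28 and 5.50, around female controls that lay between 5.09 and 5.33. The differences of Ece1 and Mmel1 were -0.05 and 0.06 in males and -0.04 and -0.01 in females, with no 95% interval reaching past 0.16 in size.

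The genotype difference itself was compared between the sexes. For Mme the male difference minus the female one was -0.19 (SE 0.23, 95% interval -0.66 to 0.28, adjusted p = 0.997), and -0.04 without male control 6. The 2 members with an unadjusted p under 0.05 were Dpp4 (-0.35, SE 0.15) and Anpep (-0.31, SE 0.15), each at an adjusted p of 0.997, where 4.04% of all genes reached that level. A single gene of 19050 (0.00525%) was called in this comparison, and it was no member.

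The peptides these enzymes cut, the peptides' receptors and other peptidases were read from lists of 39, 45 and 41 genes, of which 23, 24 and 27 were tested. Between the control sexes 1 ligand was lower in males, 2 receptors were higher, and 2 other peptidases were higher and 1 lower, again beside 6.94% of all genes. In knockouts 1 ligand was higher and 2 lower, 1 receptor was higher and 1 lower, and 1 other peptidase was higher and 2 lower, beside 7.19% of all genes. The median sex differences of the 3 lists in controls were -0.08, -0.02 and 0.02, beside -0.01 over all genes, and their median sizes 0.12, 0.10 and 0.08, beside 0.07.

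Adm, the gene of the vasodilator peptide adrenomedullin, was the ligand that differed most, and in the direction opposite to Mme. It read 7.89 ± 0.57 (n = 6) in male controls and 9.64 ± 0.45 (n = 5) in female controls, a difference of -1.75 (SE 0.24, adjusted p = 2.82e-05). In knockouts it read 8.09 ± 0.27 (n = 6) in males and 9.67 ± 0.39 (n = 5) in females, a difference of -1.58 (SE 0.24, adjusted p = 7.80e-05). Male and female arrays did not overlap in either genotype, so that Mme and Adm separated the same arrays in opposite directions. In knockouts Cxcl12, the chemokine that Dpp4 inactivates, was lower in males (-0.47, SE 0.10, adjusted p = 0.00518), and Calcb, a calcitonin gene-related peptide, was higher (0.57, SE 0.12, adjusted p = 0.00279). Neither passed in controls, at -0.21 and 0.38 (adjusted p = 0.284 and 0.0549).

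Among the receptors, Agtr1a, the main receptor of the angiotensin II that Ace makes, was higher in males of both genotypes. Its levels were 6.89 ± 0.22 against 6.18 ± 0.13 in controls (0.70, SE 0.11, adjusted p = 2.25e-04) and 6.96 ± 0.23 against 6.19 ± 0.21 in knockouts (0.77, SE 0.11, adjusted p = 6.80e-05). Cxcr4, the receptor of Cxcl12, was higher in male than in female controls (1.47, SE 0.23, adjusted p = 1.75e-04), with a knockout sex difference of 0.46 that did not pass (adjusted p = 0.325). The difference between these differences was -1.01 and did not pass either (adjusted p = 0.997). Oprd1, an opioid receptor for enkephalins, was lower in male than in female knockouts at -0.23 (adjusted p = 0.0470). That call was lost under 23 of 33 alternative settings, quantile normalization among them (adjusted p = 0.114).

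Of the other peptidases, Cpm, a membrane carboxypeptidase, was higher in males by 0.36 (SE 0.08, adjusted p = 0.00772) in controls and 0.49 (SE 0.08, adjusted p = 3.68e-04) in knockouts. Ggt5, a gamma-glutamyl transferase of the cell surface, was lower by 0.52 in controls (log2 difference -0.52, SE 0.09, adjusted p = 3.34e-04) and by 0.44 in knockouts (-0.44, adjusted p = 0.00179). Dpp6, a relative of Dpp4 without peptidase activity, was lower in male than in female knockouts (-0.34, SE 0.08, adjusted p = 0.00676). Its sex difference missed in controls (-0.25, adjusted p = 0.0602). Rnpep, a secreted aminopeptidase, was higher in male than in female controls (0.18, SE 0.05, adjusted p = 0.0227), a call that 8 of 33 alternative settings lost. Among these were the mean of its probe sets (0.01, adjusted p = 0.915), the replicate block (adjusted p = 0.0590), only the control arrays (adjusted p = 0.0951), and leaving out male control 2, 3 or 5 or female control 2 or 5 (adjusted p from 0.0570 to 0.0691).

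**Figure D4:**
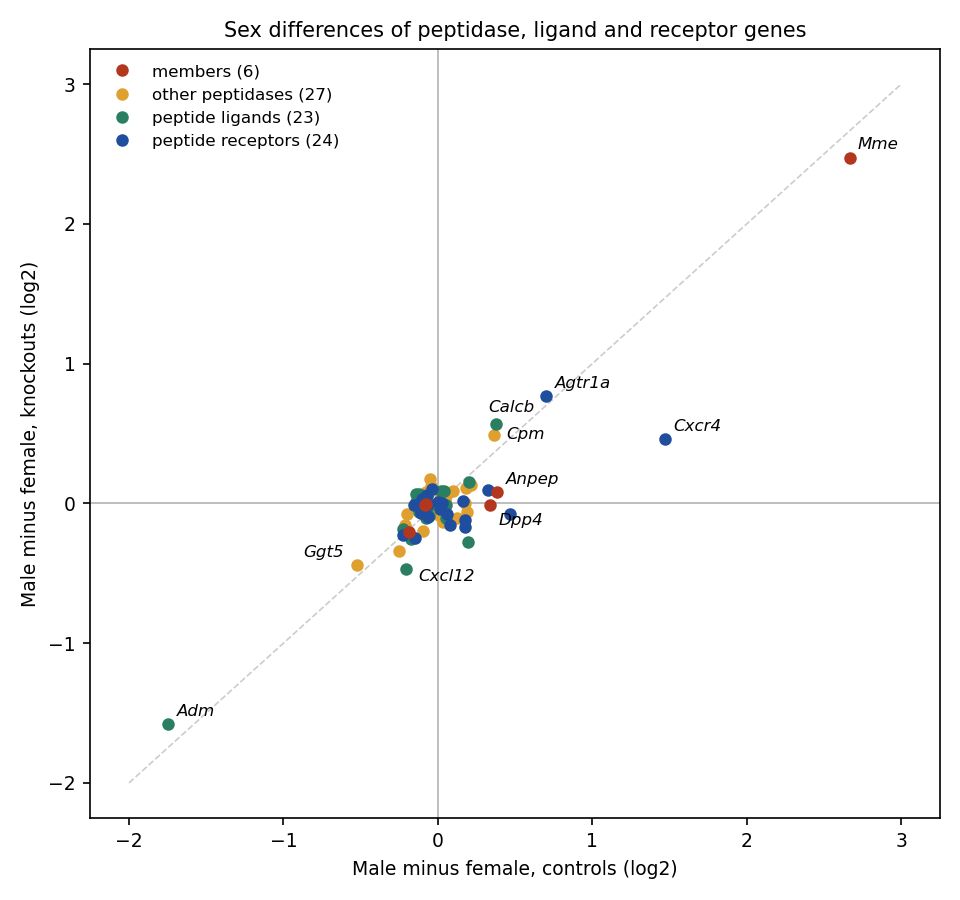
Male minus female log2 difference in controls (horizontal axis) and in knockouts (vertical axis) of the 6 tested members and of the tested genes of the 3 lists (27 other peptidases, 23 ligands and 24 receptors), 1 point per gene, with the dashed line at equal differences. Mme (2.67 and 2.48) and Adm (-1.75 and -1.58) lie at opposite ends near the dashed line, Cxcr4 lies below it, and most other points crowd around 0.

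On the average of the sexes, the knockout genotype left these lists almost without calls, beside 0.247% of all genes. In limma 0 of 27 other peptidases (2 at an unadjusted p under 0.05), 0 of 23 ligands (2 unadjusted) and 1 of 24 receptors (1 unadjusted) passed. The share of all genes at that unadjusted level was 7.19%. The receptor that passed was Cxcr4, which fell by 1.25 (log2 difference -1.25, adjusted p = 2.03e-04). In males it went from 8.63 ± 0.48 (n = 6) to 6.87 ± 0.38 (n = 6), a difference of -1.76 (adjusted p = 2.86e-04) and the steepest fall of all genes tested, while the female difference of -0.75 did not pass (adjusted p = 0.731). The median differences were 0.02 for other peptidases, 0.00 for ligands and 0.02 for receptors, beside 0.01 over all genes.

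As a description over the 22 arrays, after each group's mean was taken off, Pearson r between pairs of tested members ran from -0.46 (Mme and Mmel1) to 0.58 (Mme and Ece1). Without male control 6 these were -0.31 and 0.58, and the lowest pair was then Mme and Dpp4 at -0.33. These arrays share their processing and dissection.

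The genes whose deviations were most like those of Mme were Rps23-ps, Rps26, Rpl28-ps3, Rpl31-ps12 and Tshz3, with r from 0.79 to 0.81 over 22 arrays. Without male control 6 these fell to between 0.59 and 0.74. The first 4 are ribosomal protein genes or copies of them, whose probes may not tell near-identical copies apart, and Tshz3 is a transcription factor. None of the 5 was called between the control sexes. For Ece1 the most alike were Tnc, Cyp1b1 and Dkk3 (0.84, 0.81 and 0.79), and for Anpep they were Eif3l, Dpp3 and Rela (0.81, 0.79 and 0.76). Dpp3 is a cytosolic dipeptidyl peptidase of the list of other peptidases.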

How the data were processed

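Total RNA of 22 samples was hybridized to Affymetrix whole-transcript arrays, per the labels' protocols. The authors deposited 1 table of log2 values for 72688 probe sets, of which 65770 are transcript clusters. Values ran from 1.59 to 14.23, a range that points to a log2 scale, and no source used here states the software or normalization behind them. The values were used as deposited. Of the probe sets, 30604 had exactly 1 gene symbol in the platform's table, 2146 had several, and 33185 transcript clusters were not listed. Symbols were updated through gene identifiers for 827.

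Probe sets with 1 symbol were tested if above the 50th percentile of their array on at least 5 arrays, 1 per gene by highest mean, which left 19050 genes. Limma 3.58.1 in R 4.3.3 fitted 4 group means over all arrays (18 residual and 4.34 prior degrees of freedom), with two-sided moderated tests of 6 comparisons, and calls were made at 0.05 after Benjamini-Hochberg adjustment across the 19050 genes. Each p-value weighs a difference against the spread between arrays, and an array may hold 1 fetus or a pool. Precision is limited by how many arrays there are, with a median SE of 0.065 for knockout against control in males, 0.071 in females and 0.068 between the sexes of 1 genotype.

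The members and lists were chosen with earlier results of these data known. Genes named besides the members were Sox9 and Shh, the called genes of 3 peptide lists (at most 4 by smallest p, otherwise 2), and those most alike Mme (5) or another called member (3) by Pearson r of deviations from group means, without predicted genes. The Y-linked genes ahead of Mme were named after their values were seen. Alternatives were quantile normalization, median centring, no filter, the 75th percentile, the mean of probe sets, trend and robust eBayes, only the arrays of the 2 groups, array weights, a replicate block, mesenchyme or endothelium markers as a covariate, and leaving out each array. No pair of arrays shared over 0.0334% of values. The programs were tested on simulated data. Figures used matplotlib 3.10.9 in Python 3.11.15.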

Additional observations from a re-analysis of the deposited data

Results flagged for a closer look

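Arrays far from the rest of their group were looked for in 32 groups of values (8 members in 4 groups), of which chance flags about 1 in 20. In 3 the highest array lay apart. Mme on male control 6 was 9.21, with 8.51 as the next male control. Fap on the same array was 4.06, with 3.72 as the next, and this array also had the highest mesenchyme and smooth muscle marker means, whose part in these values was not tested. Dpp4 on male knockout 4 was 5.70, with 5.26 as the next male knockout. That array had the highest urothelial marker mean of the male arrays, 10.48, with 10.09 as the next male knockout. Female knockouts 1 to 5 had urothelial means of 10.55, 9.87, 10.48, 9.96 and 10.44, beside Dpp4 values of 5.73, 5.05, 5.05, 5.28 and 5.50. The part of urothelial cells in the Dpp4 values was not tested.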

How the results depend on the processing

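The male excess of Mme passed under every alternative run in both genotypes, from 2.51 to 2.80 in controls and from 2.38 to 2.53 in knockouts when each array was left out. The calls of Ece1 were lost with median centring and that of Anpep with the replicate block and without either of 2 arrays, as given above. With median centring 1 member was called between the knockout sexes, and the split over all genes of the control sexes moved from 623 higher and 699 lower to 584 and 363. Members called between the control sexes numbered 2 to 4 when arrays were left out. The deviations gave little sign that the replicate numbers pair the arrays. Of 11 same-number pairs within a sex, 2 had correlated deviations over 0.1 (range -0.21 to 0.13), and 2 of 22 arrays correlated best with their own number. Such correlations cannot exclude a pairing by litter or day, which the labels do not give.

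The signs that turned were of member differences near 0 that did not pass. Between the knockout sexes Mmel1, Dpp4 and Ace read 0.018, 0.015 and 0.014 with quantile normalization and 0.012, 0.0095 and 0.0062 with median centring, Mmel1 and Dpp4 read 0.0068 and 0.0016 with the replicate block, and Dpp4 2.1e-04 with the endothelium covariate. Leaving out arrays gave ranges of -0.025 to 0.013 for Mmel1, -0.086 to 0.095 for Dpp4 and -0.041 to 0.040 for Ace there, and, for knockout minus control in females, -0.025 to 0.017 for Mmel1, -0.15 to 0.011 for Anpep and -0.032 to 0.14 for Dpp4. The sex difference of the Ece1 effect read 0.0039 with array weights and -0.031 to 0.020 when arrays were left out.

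Over all genes, calls for the knockout in males were 20 with only the male arrays. In females they were 3 with median centring, 11 with array weights, 3 with only the female arrays and 2 to 8 when arrays were left out. On the average they were 72 with array weights. For the sex difference of the effect they were 0 with quantile normalization, median centring, no filter or trend and robust eBayes, 2 with the replicate block or array weights, and 0 to 2 when arrays were left out. The causes were not tested. Mmel1, Dpp4 and Ace did not pass the filter at the 75th percentile, so that no value can be given for them there. Background may limit what can be seen for them, for Enpep and Fap and for Mme in females, but its share of their signal was not tested.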
